A study of Neurospora crassa with 12 samples.

Results

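Genes without introns were taken from the transcript annotation of Neurospora crassa as the annotated genes all of whose annotated transcripts consist of a single exon. They numbered 1747 of 9730 annotated genes, or 18.0% (95% exact Clopper-Pearson interval 17.2 to 18.7%). All other 7983 genes had 2 or more exons in at least 1 annotated transcript, and 66 of these also had an annotated transcript of 1 exon. Each of the 1747 intronless genes had a single annotated transcript, and 898 lay on the plus strand. Intervals of shares given here are exact Clopper-Pearson 95% intervals and cover counting error only.

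RNA-seq was done on mycelia of 3 Neurospora strains: WT, Δset-1 (Δkmt2), which lacks the histone H3 lysine 4 methyltransferase, and Δdim-5 (Δkmt1), which lacks the histone H3 lysine 9 methyltransferase. Per the study's methods, both deletions were backcrossed to the WT strain. All cultures were grown for 2 days at 25 °C, and each strain was collected after 24 h in constant darkness (DD24) or after the dark period and a final 30 min of light (LP30), with 2 replicates for each of the 6 groups. The file holds 1 annotation assembled from all 12 libraries together, with positions, strands and exons of 21475 transcripts, of which 10785 were annotated and 10690 were not, so that depth per library is not known from the file and neither strain nor light could be compared.

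Introns are cut out of the primary transcript by the spliceosome, and in Neurospora they are short and most genes carry at least one of them. A gene without introns gives an mRNA that matches its DNA end to end, so that an intron found in an assembled transcript of such a gene changes the transcript relative to the annotation. Antisense transcripts arise from the strand opposite a gene, and in Neurospora the clock gene frq, with its antisense transcript qrf, is the best known case. Fisher's exact tests below are 2-sided, with Benjamini-Hochberg adjustment over 20 exact tests, of which 10 passed the threshold of 0.05. Genes of 1 pooled annotation are not replicates, so a p-value describes this annotation and not the spread between cultures.

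Intronless genes were shorter in exon sequence than genes with introns. Their exonic length had a median of 1718 nt, with quartiles of 1152 and 2435 nt and a range of 210 to 12080 nt. The median was 1996 nt in the other genes, 1821 nt in those with 2 exons and 2136 nt in those with 3 or more. Of the intronless genes, 59.2% (56.8 to 61.5%) were at or under the median of all genes, 1940 nt, compared with 48.0% of the other genes (odds ratio 1.57, interval 1.41 to 1.75, adjusted p = 1.52e-16, Fisher's exact test). Against genes of 2 exons alone the difference was 4.72 percentage points, and with the span of the gene in place of its exons it was 18.7 points.

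**Figure D1:**
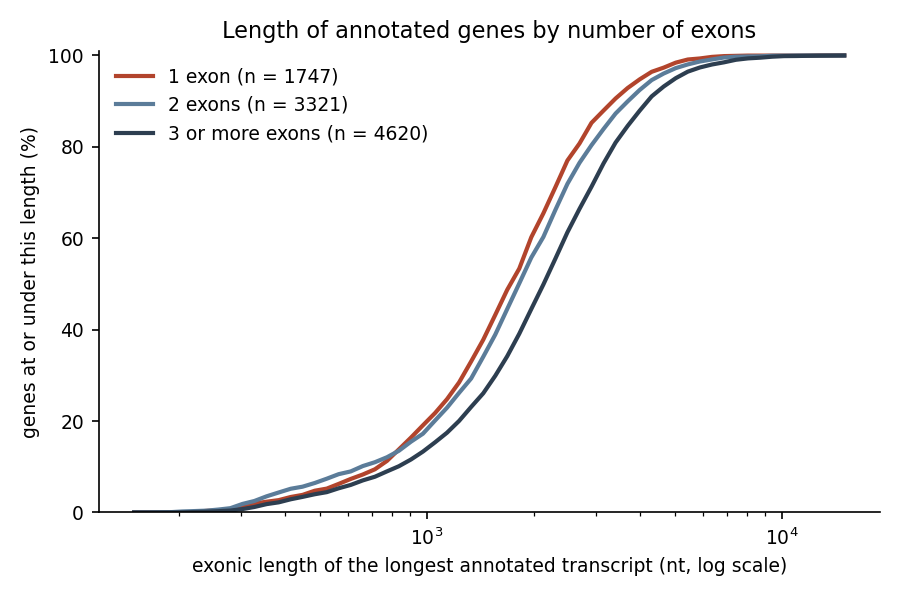
Share of annotated genes (%) at or under each exonic length (nt, log scale) of the longest annotated transcript, for 1747 intronless genes, 3321 genes of 2 exons and 4620 genes of 3 or more exons. Genes of both kinds whose longest transcript has 1 exon are not drawn. From about the median upwards the curve of the intronless genes lies to the left of both others (medians 1718, 1821 and 2136 nt).

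The longest intronless gene was mb-3 (NCU00658), 12080 nt on chromosome I from 7658397 to 7670476 (NC12, minus strand). It was far longer than the next, NCU02685 on the same chromosome, with 7489 nt. The 8 genes that followed were NCU05458, NCU00205, NCU03592, NCU03754, NCU07784, NCU07516, NCU06984 and crf1-1 (NCU09993), between 6093 and 7257 nt. All 10 had an assembled transcript and none had an unannotated isoform. Of the 10, mb-3 and NCU03754 carried an antisense transcript, over 688 and 196 bp at the 3′ end. At the other end of the scale, NCU10730 had 210 nt, NCU08089 had 213 nt, NCU02465 had 234 nt, NCU05529 had 237 nt and NCU05528 had 240 nt. NCU08089 lay wholly under an antisense transcript of 1 exon, and NCU05529 and NCU05528, both on chromosome VI, had no assembled transcript.

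The assembly carries a score for transcripts that StringTie wrote and a dot for annotated transcripts taken over from the reference, and a gene with dots alone is called here a gene without an assembled transcript. Intronless genes were in this state more often than genes with introns. They were 216 of 1747, or 12.4% (10.9 to 14.0%), compared with 608 of 7983, or 7.62% (7.04 to 8.22%), and 8.47% of all annotated genes (odds ratio 1.71, interval 1.44 to 2.02, adjusted p = 2.52e-09, Fisher's exact test). Length moved with this state. Within 5 groups of exonic length, divided at 1125, 1677, 2245 and 3095 nt, the share in the shortest group was 31.98% of intronless and 24.9% of other genes, and in the longest group 1.37% and 1.16%. Across these groups the difference was smaller but kept its direction (common odds ratio 1.47, interval 1.23 to 1.76, adjusted p = 5.43e-05, exact conditional Cochran-Mantel-Haenszel test). The dot is not a measure of expression, and why these genes carry it was not tested. In bulk samples, few expressing cells and little RNA per cell could not be told apart either.

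The 216 intronless genes without an assembled transcript had a median of 909 nt (quartiles 606 and 1409 nt), while the 1531 with one had a median of 1839 nt. In 188 of the 216 (87.0%, 81.8 to 91.2%) the exonic length was a multiple of 3, compared with 41.2% (38.7 to 43.7%) of the intronless genes with an assembled transcript. A coding sequence from start to stop codon has a length that is a multiple of 3, while a transcript with untranslated ends need not, and the part of such gene models in the result was not tested. Of the 216, 145 lay beside another annotated gene without an assembled transcript, as did 335 of the 608 other genes in this state. None of the 216 had an antisense transcript or an isoform, and neither did any of the 608 other genes in this state. In both classes the dot thus stood only at genes without either, and these counts are read as a property of the label. Whether a score can come from another transcript over the gene was not tested. Among genes with symbols, sms-2 (NCU09434), which encodes an Argonaute protein of meiotic silencing, and the kinase genes stk-35 (NCU05655), stk-36 (NCU05658) and stk-56 (NCU10004) were without an assembled transcript. The 3 kinase genes lie on chromosome III between 341949 (stk-56) and 393053 (stk-36). They were named after their values were seen.

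**Figure D2:**
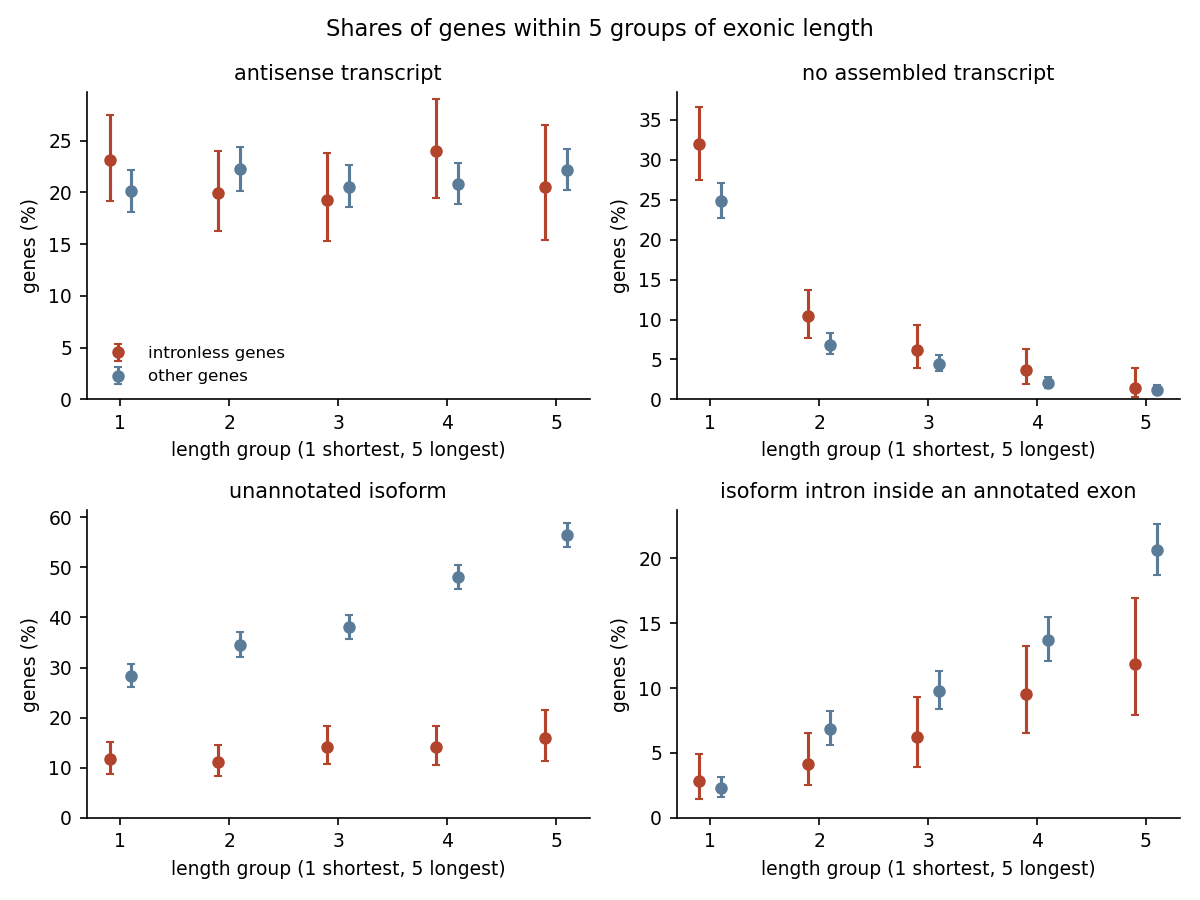
Shares of genes (%) with an antisense transcript, without an assembled transcript, with an unannotated isoform and with an isoform intron inside an annotated exon, for intronless and other genes within 5 groups of exonic length (1 the shortest), with exact 95% intervals. The intervals for antisense transcripts overlap in every group, whereas isoforms are fewer for intronless genes in every group.

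The share of genes under an antisense transcript was close in intronless genes and genes with introns, with no difference past the test. An unannotated transcript was called antisense where its exons shared 1 bp or more with an annotated exon on the opposite strand only. Such a transcript lay over 374 intronless genes, or 21.4% (19.5 to 23.4%), and over 1692 other genes, or 21.2% (20.3 to 22.1%), beside 21.2% of all annotated genes. The odds ratio of 1.01 had an interval from 0.89 to 1.15 (adjusted p = 0.891, Fisher's exact test), and across the length groups it was 1.02, from 0.893 to 1.16 (adjusted p = 0.883, exact Cochran-Mantel-Haenszel test). Among genes with an assembled transcript the shares were 24.4% and 22.9%. Of the intronless genes, 296 carried 1 antisense transcript, 56 carried 2, 16 carried 3 and 6 carried 4 or more.

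The covered part of the gene was larger in intronless genes. The median share of exon bases under antisense transcripts was 42.0% over the 374 covered intronless genes (quartiles 13.2 and 97.9%) and 26.8% over the 1692 others (quartiles 12.02 and 64.9%). The largest overlap had a median of 526 bp in intronless and 433 bp in other genes. With an overlap of at least 50% of the exonic length as the minimum, 9.67% of intronless and 6.68% of other genes were covered (p = 2.17e-05, Fisher's exact test). Across the length groups the common odds ratio was 1.35 (p = 0.00157, exact test) and it was smaller where those groups were made from the span of the gene (1.23, p = 0.0297, exact test). Both of these fits were added after seeing the data. The gap was widest among the shortest genes, with 16.7% (13.3 to 20.6%) of intronless and 11.0% (9.47 to 12.7%) of other genes, while in the middle group the shares were 6.80 and 6.77% and in the longest 3.20 and 2.84%. A cover of 90% or more of the exon was found for 121 intronless genes, or 6.93% (5.78 to 8.22%), and for 259 others, or 3.24% (2.87 to 3.66%). In a gene with introns, an antisense exon over an intron was not counted as cover, and the part of this in the difference was not tested.

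**Figure D3:**
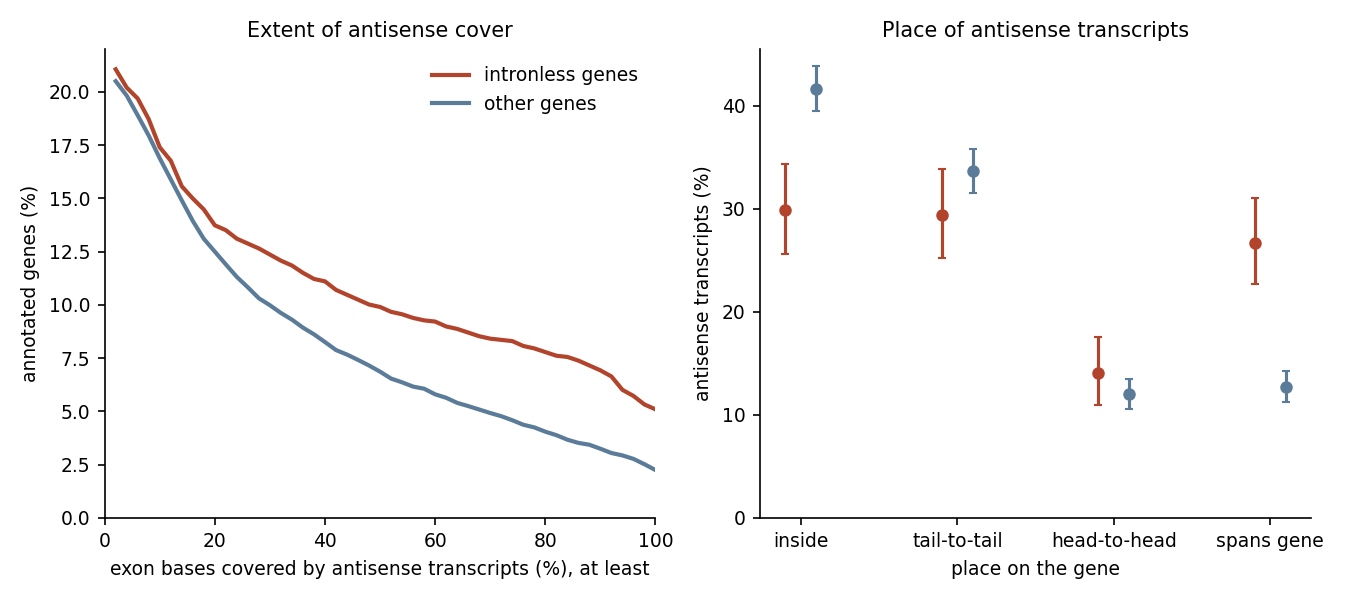
Left, share of annotated genes (%) in which at least the given part of the exon bases (%) lies under antisense transcripts, for intronless and other genes. Right, place of each antisense transcript on the gene it overlaps most (% of 449 transcripts on intronless and 1991 on other genes, in the same colours, with exact 95% intervals). The curves start together near 21% and separate as the cover grows, to 6.93% and 3.24% at 90% cover.

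Each antisense transcript was placed on the gene with which it shared most exon, which gave 449 on intronless genes and 1991 on other genes. On intronless genes 29.8% (25.6 to 34.3%) lay inside the gene, 29.4% passed its 3′ end (tail-to-tail), 14.0% passed its 5′ end (head-to-head) and 26.7% (22.7 to 31.1%) spanned the whole gene. On other genes 41.6% lay inside, 33.7% were tail-to-tail, 239 transcripts were head-to-head and 12.7% (11.3 to 14.3%) spanned the gene. Whole-gene antisense transcripts thus took a larger share on the intronless genes, which are also the shorter ones, and this difference was not tested. Of the transcripts that passed 1 end only, tail-to-tail made up 132 of 195 (67.7%) on intronless genes and 670 of 909 (73.7%) on others, a difference that did not pass the test (adjusted p = 0.169, Fisher's exact test). Single-exon transcripts were 71.9% of the antisense transcripts on intronless genes and 70.6% of those on other genes.

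The antisense overlap was longest at NCU09252, with 3568 bp, followed by NCU06516, where the antisense transcript ran over all 3482 nt of the gene. NCU05880 had 3042 bp, NCU05980 2892 bp, NCU03279 2885 bp and NCU02215 2826 bp of overlap, the last 3 over the whole gene. The tenth was NCU08047 with 2537 bp, just below NCU10392 with 2585 bp. Among these 10 genes were 2 with a symbol, hsp78 and aln-1. The gene hsp78 (NCU02630, chromosome I, 2990148 to 2993018, minus strand), which encodes a mitochondrial heat shock chaperone, had 3 antisense transcripts, the longest over 2781 bp from the 3′ end, and 96.9% of its exon was covered. The gene aln-1 (NCU02296, chromosome VII, 3015966 to 3018619, plus strand), for an enzyme of purine breakdown, had 2, with an overlap of 2624 bp and a cover of 98.9%. In 9 of these 10 genes the transcript with the longest overlap had 1 exon, and at hsp78 it had 2.

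Spliced antisense transcripts lay over 91 intronless genes, 44 of which were covered by antisense transcripts over more than 90% of the exon. Counted once for each gene they overlap, 139 of 479 antisense transcripts of intronless genes had 2 or more exons (29.0%, 25.0 to 33.3%), compared with 29.9% on other genes. At 36 of 1747 intronless genes, 49 introns of antisense transcripts fell inside the single exon of the gene. At 131 of 7983 other genes, 175 fell inside an exon. No isoform on an intronless gene's own strand had an intron at the same place, but only 135 such introns lay inside these genes. For other genes 182 antisense introns were also on the gene strand, a count not limited to the 175. The absence was not tested.

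Overlap with annotated genes of the opposite strand showed no difference past the test. Exon overlap with such a neighbour was present for 21.5% of intronless and 22.0% of other genes (odds ratio 0.968, interval 0.851 to 1.10, adjusted p = 0.785, Fisher's exact test). With either an antisense transcript or an opposite annotated exon counted, the shares were 41.1% and 40.6%. Intronless genes lying wholly inside the span of another annotated gene numbered 33 (1.89%, 1.304 to 2.64%), and other genes so placed numbered 37 (0.463%, 0.327 to 0.638%). All 33 were on the opposite strand, all shared exon with the host gene, all had an assembled transcript, and their median length was 1100 nt. Whether the score of a nested gene came from its host was not tested. Among the 33 were pod-1 (NCU07955, 3311 nt, inside NCU07954 on chromosome IV) and inv (NCU04265, 2375 nt, inside NCU04264 on chromosome V), the gene of the sucrose-splitting enzyme invertase. The nested genes were not tested, since they were singled out after their values were seen.

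Unannotated isoforms were assembled for fewer intronless genes than genes with introns. An isoform here is an unannotated transcript whose exons share at least 1 bp with a gene of its own strand. The intronless genes with one numbered 228, or 13.1% (11.5 to 14.7%), compared with 3318 of the others, or 41.6% (40.5 to 42.7%), and 36.4% of all annotated genes (odds ratio 0.211, interval 0.182 to 0.245, adjusted p = 5.78e-125, Fisher's exact test). Across the length groups the common odds ratio was 0.224 (0.193 to 0.260, adjusted p = 6.79e-111, exact test). In other genes the share rose from 28.4% in the shortest group to 56.5% in the longest, while in intronless genes it ran from 11.7% to 16.0%. The difference was smaller, at 15.0 percentage points, against genes of 2 exons. A gene with introns can also gain an isoform that keeps or shifts an annotated intron, which an intronless gene cannot. The measure is thus not alike in the 2 classes, and the part of this in the difference was not tested. Introns inside annotated exons, given below, have the same meaning in both.

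All 324 isoforms of intronless genes were spliced. A count of 0 with 1 exon among 324 allows a share of up to 0.926% taken as 3 counts, or 1.13% by the exact upper bound, whereas 379 of 5197 isoforms of other genes (7.29%, 6.60 to 8.03%) had 1 exon. How the merge treats a single-exon transcript that lies over a single-exon gene was not tested, and with isoforms of 2 or more exons alone the shares were 13.1% and 37.9%. Of the 324 isoforms, 218 had 2 exons, 59 had 3 and 47 had 4 or more, up to 8. A single isoform was present at 163 of the 228 genes, and the most was 9.

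A large part of these isoforms joined neighbouring genes. Of the 324, 121 (37.3%, 32.1 to 42.9%) shared exon with 2 or more annotated genes, compared with 460 of 5197 (8.85%, 8.09 to 9.66%) for other genes. These are shares of isoforms, not of genes. An isoform that joins an intronless gene to a gene with introns belongs to both sets, so the sets are not separate. With joining isoforms left out, the share of genes with an isoform went from 13.1 to 9.04% in intronless genes. In other genes it went from 41.6 to 37.0%. Isoforms of the gene alone were present at 158 intronless genes, and at 70 all isoforms joined a second gene. Only 6 of the 121 joined intronless genes to each other and to no gene with introns. The isoforms of most exons were of this joining kind, since an isoform of an intronless gene alone had at most 4 exons. The pheromone precursor gene mfa-1 (NCU16992) had 4 isoforms of up to 5 exons, all of which also shared exon with NCU01258. None of their introns lay wholly inside the annotated mfa-1 exon. The gene spe-2 (NCU01083), for an enzyme of polyamine synthesis, had 2 isoforms, of which that with 6 exons shared exon with NCU01081 and NCU01082 too.

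Genes with most isoforms were likewise often joined to a neighbour. NCU07932 had 9 isoforms, each also sharing exon with NCU07933 and each of at most 6 exons. NCU12024 had 7, all shared with NCU09699, and NCU16318 had 5, all shared with NCU09085. NCU00752, of 465 nt only, had 4 isoforms that joined it to NCU00753, 2 of them to NCU00751 as well, with up to 7 exons. NCU02770 and NCU05340 had 4 isoforms each, of which 3 and 1 joined another gene. Of the 10 genes named for most isoforms, nmr with 5, NCU05900 with 4 and NCU00287 with 3, the last tied with further genes, had only isoforms of the gene alone, each with introns inside the exon. The isoform of most introns, 7, was that of NCU17026, which joined it to NCU04191. Next to NCU00752 and spe-2, isoforms of 6 exons were also found at NCU06246 and NCU07900, each joined to 1 other gene.

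The gene nmr (NCU04158, chromosome V, 5027349 to 5030561, plus strand), a negative regulator of the nitrogen catabolic genes, was annotated as 1 exon of 3213 nt. Each of its 5 isoforms had 2 exons and 1 intron, and the introns were 61, 273, 290, 294 and 299 bp long. All 5 isoforms ended with the annotated gene, and 3 also began with it. No antisense transcript was assembled there. NCU05900 had introns of 58, 69, 143 and 159 bp inside an exon of 1828 nt, and NCU00287 had 4 different introns of 52, 57, 69 and 85 bp inside an exon of 2930 nt.

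Fewer intronless genes had an intron assembled inside their exon than genes with introns had inside one of theirs. Such introns were present in 109 intronless genes, or 6.24% (5.15 to 7.48%), in 873 other genes, or 10.9% (10.3 to 11.6%), and in 10.1% of all annotated genes (odds ratio 0.542, interval 0.437 to 0.667, adjusted p = 2.52e-09, Fisher's exact test). Across the length groups the common odds ratio was 0.633 (0.509 to 0.783, adjusted p = 2.31e-05, exact test). It was 0.728 with introns that match an annotated one left out. In the shortest group the shares were 2.86% (1.49 to 4.95%) and 2.29% (1.60 to 3.17%), and in the longest 11.9% (7.90 to 16.9%) and 20.6% (18.8 to 22.6%). Per Mb of exon there were 40.3 such introns in intronless genes and 57.2 in other genes, again without those that match an annotated intron.

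The 135 introns inside intronless genes had a median length of 80 bp, with quartiles of 61.5 and 124 bp and a range of 21 to 926 bp. The 17854 annotated introns of other genes had a median of 76 bp, with quartiles of 62 and 117 bp. Lengths of 50 to 150 bp were found for 75.6% (67.4 to 82.5%) of the former and 81.4% (80.9 to 82.0%) of the latter. The length was a multiple of 3, which leaves the reading frame of the rest unshifted, in 41.5% (33.1 to 50.3%) of the introns inside intronless genes, 38.6% (35.9 to 41.4%) of those inside exons of other genes and 33.7% (33.0 to 34.4%) of the annotated ones. The interval of the intronless genes includes the share of the annotated introns only at its lower edge. It takes the 135 introns as independent, although they came from 109 genes and some shared an end, so it is too narrow. By place, the gene was divided into 5 parts of equal length, of which that at the 5′ end held 35.6% (27.5 to 44.2%), that at the 3′ end 28.9% (21.4 to 37.3%) and each part between 10.4 to 13.3%. The introns thus lay mostly near the ends of the gene, and the files do not say which part of an exon is coding.

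**Figure D4:**
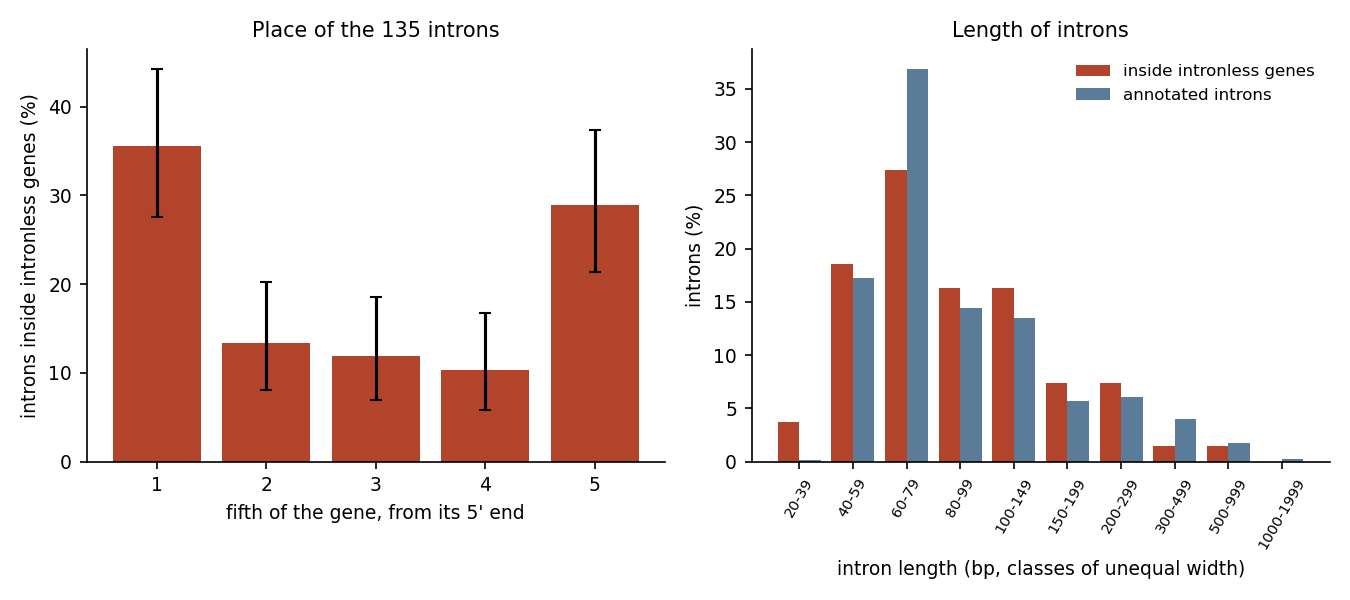
Left, place of the 135 isoform introns inside intronless genes in 5 equal parts of the gene from its 5′ end (% of introns, with exact 95% intervals). Right, lengths (bp, in classes of unequal width) of the same introns and of 17854 annotated introns (% of introns). The first and last parts hold 35.6 and 28.9%, and both length distributions are highest at 60 to 79 bp.

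Isoform introns also lay outside the annotated exon. There were 145 upstream of the gene, at 71 genes, and 82 downstream, at 40 genes. A further 39 crossed the 5′ end, at 32 genes, and 29 crossed the 3′ end, at 24 genes. Medians were 79 bp upstream, 72 bp downstream, 110 bp across the 5′ end and 163 bp across the 3′ end. The longest of these were 75134 bp upstream and 91373 bp across a 3′ end, against 1884 bp for the longest annotated intron. In 81 genes all isoform introns were inside the gene, in 28 they were inside and elsewhere, and in 119 only elsewhere.

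Intronless genes were found on all 7 chromosomes, and none lay outside them. The share ran from 16.7% on chromosome III to 21.1% (18.5 to 23.7%) on chromosome VI, where 208 of 988 genes were intronless. Only chromosome VI passed the test against the other chromosomes (odds ratio 1.25, interval 1.06 to 1.47, adjusted p = 0.0173, Fisher's exact test). By distance to the first or last annotated gene of the chromosome, the share was 18.9% (13.8 to 25.0%) within 50 kb, 21.9% from 50 to 100 kb, 24.4% (20.1 to 29.1%) from 100 to 200 kb, 22.4% (19.9 to 25.1%) from 200 to 500 kb, 18.9% (17.0 to 20.9%) from 500 to 1000 kb and 16.5% (15.6 to 17.4%) further in. In 6 of the 7 chromosomes the share was higher under 1000 kb than beyond, the exception being chromosome VII with 17.9 and 19.4%. On chromosome VI it was 23.1 and 18.8%. The share of genes without an assembled transcript also differed by position, with no steady course towards the end. Among intronless genes it was 20.5% within 50 kb, 14.6% from 50 to 100 kb, 20.2% from 100 to 200 kb, 25.1% from 200 to 500 kb, 16.3% from 500 to 1000 kb and 7.36% further in. Among other genes it was 8.38, 8.90, 16.3, 15.7, 11.5 and 4.94% at the same distances. The part of this in the position of intronless genes was not tested.

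**Figure D5:**
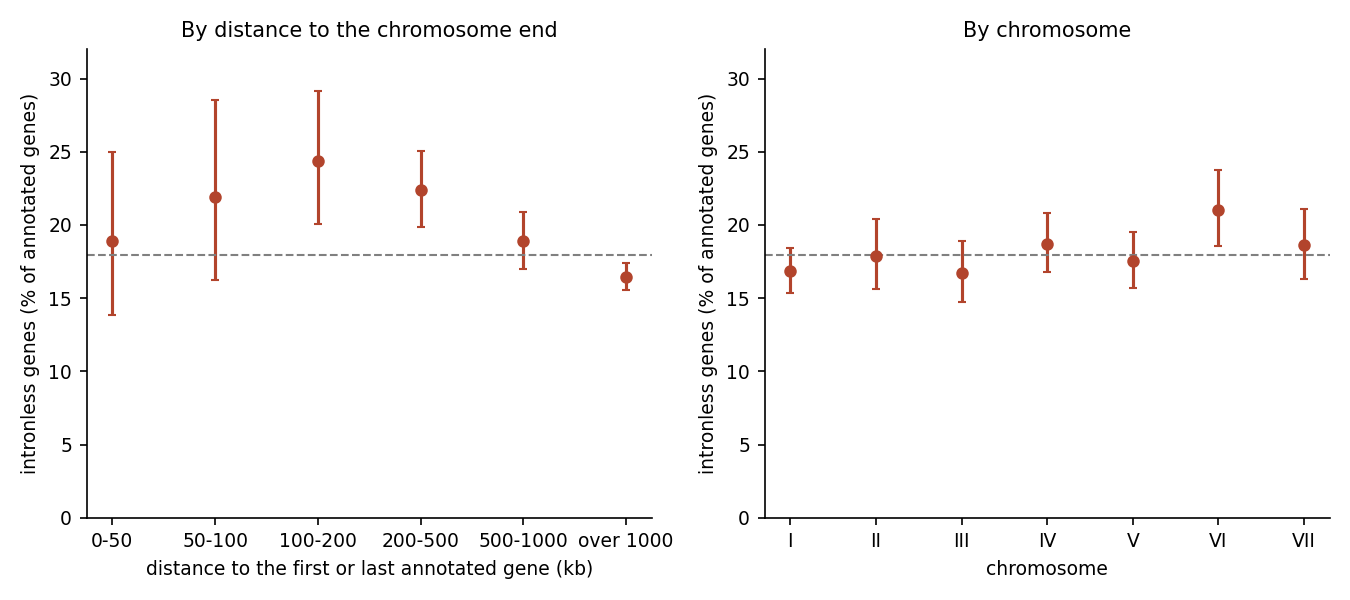
Share of annotated genes that are intronless (%) by distance to the first or last annotated gene of the chromosome (kb) and by chromosome, with exact 95% intervals and the share over all genes, 18.0%, as a dashed line. The share is 24.4% at 100 to 200 kb and 16.5% over 1000 kb from an end, and chromosome VI is the highest with 21.1%.

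Intronless genes were followed by another intronless gene more often than genes with introns were, though most were followed by a gene with introns. The next gene along the chromosome was intronless for 380 of 1745 intronless genes, or 21.8% (19.9 to 23.8%), and for 1366 of 7978 others, or 17.1% (16.3 to 18.0%) (odds ratio 1.35, interval 1.18 to 1.53, adjusted p = 2.12e-05, Fisher's exact test, which takes neighbouring genes as independent). In these 380 pairs the genes were on the same strand in 52.4% (47.2 to 57.5%), compared with 44.1% (42.9 to 45.3%) of the 6612 pairs without an intronless gene. The median gap was 721 bp between intronless neighbours and 625 bp between genes with introns, with overlapping pairs counted as 0 bp. Of the 1747 genes, 1095 stood alone, 201 runs had 2 genes, 48 had 3, 16 had 4 and 7 had 5 or more.

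The longest run had 8 genes, from NCU07224 to NCU07215 on chromosome V (6201907 to 6224199), and included hcp-1. Of the 8, 5 had an antisense transcript, 3 were without an assembled transcript and none had an isoform. A run of 7 on chromosome III went from NCU08229 to NCU08234, with 2 genes under antisense transcripts. Runs of 6 were NCU07106 to NCU07101 on chromosome VI, where 4 genes were without an assembled transcript, and NCU08098 to NCU08103 on chromosome I, where 3 were and the other 3 had an antisense transcript. Of the runs of 5, that from NCU03080 to NCU03083 on chromosome I had an assembled transcript at every gene, and that from NCU03535 to NCU03531 on chromosome II, which includes the heterokaryon incompatibility gene het-6, had isoforms at 2 genes. The third, NCU04706 to NCU12078 on chromosome VI, was without an assembled transcript at 4 of its 5 genes.

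Gene models with high locus tag numbers were frequent among intronless genes. Numbers of 16000 or above were held by 180 intronless genes, or 10.3% (8.92 to 11.8%), and 311 others, or 3.90% (3.48 to 4.34%) (odds ratio 2.83, interval 2.33 to 3.44, adjusted p = 3.30e-23, Fisher's exact test). These 180 had a median of 1016 nt, and 41 of them had an antisense transcript. Of the 180, 22 (12.2%, 7.82 to 17.9%) were without an assembled transcript, close to the 12.4% of the intronless genes with lower numbers. A symbol was given to 92 intronless genes, or 5.27% (4.27 to 6.42%), and to 12.9% (12.1 to 13.6%) of the others.

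Of the gene lists that fit the study, few members were intronless, beside 18.0% of all genes and a lower share of genes with a symbol. In the light and clock list this was 1 of 20, csp-1 (NCU02713, chromosome I, 3284468 to 3286740, minus strand), a transcriptional repressor in the output of the clock. Its exon of 2273 nt had an assembled transcript, no antisense transcript and no isoform. In RNA interference it was 1 of 8, sms-2, without an assembled transcript. The loci that the study discusses included 1 of 12, NCU03747 (chromosome V, 2285398 to 2287410, plus strand), with an isoform of 2 exons that removed 192 bp from an exon of 2013 nt. None of the listed 5 genes of carotenoid synthesis, 8 of conidiation, 8 of H3K9 and DNA methylation, 3 of other histone methyltransferases or 8 histone genes was intronless. The counts depend on which genes were listed. Apart from the loci that the study discusses, the lists were made by symbol. Genes with a symbol comprised 92 intronless genes and 1026 others. The share of 18.0% is thus a high base for these lists, and no lack of intronless genes is read from them. Off these lists, set-4, set-5 and set-8 were intronless, 3 of 9 genes with the stem set.

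The 92 intronless genes with a symbol included enzymes, regulators and organelle proteins. An antisense transcript lay over 21, an isoform was assembled for 12, an intron inside the exon was found for 9, and 4 were without an assembled transcript. Over all 1747 intronless genes these shares were 21.4%, 13.1%, 6.24% and 12.4%, in the same order. Among the regulators was cre-1 (NCU08807), the repressor of carbon catabolism, which had 2 antisense transcripts over 13.1% of its exon. Antisense cover was also seen at gst-1 (NCU05780), for a glutathione S-transferase, with 92.4% of the exon, and over the whole of gh61-11 (NCU07520), in the family of secreted polysaccharide monooxygenases. Introns inside the exon were assembled for lao (NCU01066), for L-amino acid oxidase, with 85 and 99 bp, for ecd-1 (NCU06302) with 494 and 500 bp, for acw-3 (NCU05667), an anchored cell wall protein, with 48 bp, and for oxa-2 (NCU06778), of mitochondrial membrane insertion, with 73 bp. Single introns of 57, 63, 71 and 81 bp were assembled inside set-8 (NCU01973), nst-5 (NCU00203), rbg-40 (NCU07722) and mig-3 (NCU04452). These genes were named after their values were seen.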

How the data were processed

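Total RNA of 12 libraries (3 strains, DD24 or LP30, 2 replicates each) was depleted of ribosomal RNA and sequenced as 100 bp paired-end reads. The authors mapped reads to NC12 with HISAT2 2.1.0, assembled transcripts with StringTie 1.3.3b at default settings and merged them with the NC12 annotation. The authors' deposited file gives positions counted from 1 on supercontigs and a score, which is 1000 or a dot and holds no expression level. The merge pools all libraries, so replicates could not be compared and depth per library is not known from it. The labels give 60000000 reads, without saying whether per library or in all. Strand is given as in the file. The rule of the merge for transcripts of 1 exon is not stated.

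Gene symbols came from the RefSeq table of NC12, which matched 9729 of 9730 genes, all with the same start and end. Product names and intron-end sequences were not used here. The 5 length groups were of equal size over all genes. Fisher's exact tests (scipy 1.17.1, Python 3.11.15) and exact conditional Cochran-Mantel-Haenszel tests (R 4.3.3) were 2-sided. The classification was tested on simulated data. Named genes were the 10 longest and 5 shortest, the 10 with most isoforms, the 5 with most introns in an isoform, the 10 with longest antisense overlap, the longest runs and list members. The rule took 5 runs, and all 7 of 5 or more genes are given because of ties. Other ties were settled by locus tag, so the last genes by number of isoforms or introns had equals that are not named. Members and lists were chosen with earlier results of these data known. Alternatives were other comparison classes, overlap minimums, intron limits, exon numbers and length groups. Of these, 7 were added after seeing the data.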

Additional observations from a re-analysis of the deposited data

How the results depend on the processing

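No paired analysis was possible because the file pools the 12 libraries and gives no value per library, and no library could be left out. Of 54 alternatives, 48 were labelled as keeping the direction and the side of the threshold. Among the 48 were limits to chromosomes I to VII, which left out no gene and so could not change a result. The 48 also hold a count without a test, the 158 intronless genes with an isoform once joining isoforms were left out. Antisense cover, 0.213 percentage points higher in intronless genes, turned to -0.741 points with antisense transcripts of 2 or more exons (p = 0.259, Fisher's exact test) and to -0.259 points against genes of 3 or more exons, a comparison added after seeing the data (p = 0.838, exact test). It passed the threshold at 2.997 points with an overlap of 50% or more of the exonic length. Within length groups, added after seeing the data, that minimum gave common odds ratios of 1.35 and, by span, 1.23, compared with 1.02 at 1 bp; the cause was not tested. The intronless genes with a spliced isoform fell from 228 to 109 where an intron inside the gene was required, because introns outside it were no longer counted. Depth per library is not in the file, its part in which genes lack an assembled transcript was not tested, and shares do not measure expression.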

Other observations

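Symbols that share a stem were counted for the 74 stems with 4 or more genes, a grouping made after the values were seen and not tested. Of these stems, 49 had no intronless gene. The counts below stand beside a share of 18.0% over all genes. Among genes with a symbol the share was lower, with 92 intronless genes and 1026 others. The qa genes, of quinic acid breakdown, had 3 intronless genes of 7 (qa-1F, qa-2 and qa-4), none of which had an antisense transcript or an isoform. The hsp genes had 3 of 10 (hsp30, hsp78 and hsp98), of which hsp78 alone had antisense transcripts. The pod genes had 3 of 5 (pod-1, pod-4 and pod-5), and the mus genes, named for sensitivity to mutagens, had 4 of 21, or 19.0% (mus-40, mus-42, mus-44 and mus-50). The set genes had 3 of 9, the cys genes 3 of 10, the mig genes 3 of 11, the gh genes, of glycoside hydrolases, 9 of 79 and the stk genes, of kinases, 5 of 53.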
